A study of Danio rerio with 11 samples.

Results

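Genes whose products modify transfer RNA (tRNA) and ribosomal RNA (rRNA) were followed through early oogenesis in wild-type (WT) zebrafish and in znf706 mutants. The genes were chosen by name, from the families trmt, thumpd, mrm, nsun, mettl, ftsj, pus, trub, adat, dus, elp, alkbh, tfb and dimt1 and the gene trmo. Of 86 matching gene IDs, 82 reached 1 FPKM (a read level scaled to transcript length and library size) in at least 2 of the 8 RNA-seq libraries. These 82 belong to the 13862 gene IDs tested. The 4 that did not pass were mettl11b, listed at 0 in every library, mettl24, with a highest value of 0.228 FPKM, and 2 gene IDs named mettl7a, with highest values of 0.428 and 0 FPKM. The lowest mean among those that passed was 5.02 FPKM, in mettl22. Thumpd3 and mrm1 reached 1 FPKM in 4 libraries each, those of the groups where they were high.

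The 4 groups were WT and mutant oocytes of stage I and WT and mutant oocytes of stage II, with 2 libraries each, described in the series text as biological replicates. Mutants were homozygous for the CRISPR/Cas9 allele tsu7d and carry the genotype label MZznf706. Oocytes came from ovaries of juvenile females aged 3 months, freed with a cell dissociation buffer and picked with a pipette, about 600 of stage I or 150 of stage II per library. The labels give no further treatment. The series also has 3 genome-binding (CUT&Tag) libraries, which were not used here.

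Cells methylate, deaminate, reduce and isomerise bases of their tRNAs and rRNAs, and most of these changes are made by dedicated enzymes, many of which work as pairs or larger complexes. In tRNA, modifications near the anticodon tune decoding, whereas those in the body of the molecule help it to fold. In rRNA they lie mostly in the functional centres of the ribosome, and mitochondria keep enzymes of their own for both. A growing oocyte stores the ribosomes, tRNAs and mRNAs on which the early embryo depends. The name families reach partly beyond this: 5 members (mettl3, mettl14, mettl16, mettl4, alkbh5) act on N6-methyladenosine (m6A) or related marks of mRNA and small nuclear RNA. Another 6 are other AlkB dioxygenases, some acting on DNA or protein, and this class does not exclude action on tRNA. The 8 other METTL names are mettl9, mettl13, mettl21a, mettl22, mettl23, mettl25, mettl26 and mettl27, several of which methylate proteins in human cells. The remaining members were 30 of tRNA methylation with their partners, 13 placed with rRNA methylation, 11 of pseudouridine and dihydrouridine and 9 of tRNA deamination and Elongator. Within these, human TFB2M is a mitochondrial transcription factor, human METTL17 serves mitochondrial ribosome assembly and human THUMPD2 methylates a small nuclear RNA.

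The targeted gene, znf706, had 232 and 238 FPKM in WT libraries and 181 and 147 FPKM in mutant ones at stage I, and at 158 and 143 against 129 and 142 FPKM at stage II. Its transcript fell at stage I (log2 -0.52 ± 0.11, adjusted p = 0.0056) and did not pass the test at stage II (log2 -0.15 ± 0.11, adjusted p = 0.29). Summed FPKM per library ran from 653659 to 899582, relative depth read from very low values from 0.894 to 1.04 times that of WT stage I replicate 1, and 11992 to 12691 genes reached 1 FPKM. Absolute depth is unknown, since FPKM hide it. All 8 oocyte markers in the table reached 1 FPKM in both libraries of every group, with summed levels of 2918 to 4803 FPKM. Among them figla, for a transcription factor of oocytes, was at 15.6 and 14.4 FPKM in WT against 121 and 103 FPKM in mutants at stage I, and at 8.35 and 10.0 against 57.8 and 52.7 FPKM at stage II. Summed levels of 7 leukocyte markers were 3.03 to 3.07 FPKM in WT and 10.9 to 12.9 FPKM in mutants at stage I. At stage II they were 0.970 to 2.2 against 6.70 to 9.77 FPKM. At stage I cd74a was at 0.861 and 1.001 FPKM in WT against 5.95 and 4.77 FPKM in mutants. Cd74b was at 1.091 and 1.101 against 4.92 and 3.65 FPKM there. At stage II coro1a was at 0.472 and 0.480 FPKM in WT against 3.22 and 3.84 FPKM in mutants. Mpx did not rise at stage II, at 0.0488 and 0.0718 against 0 and 0.0623 FPKM. Mpeg1.1 was at 0 throughout and ptprc at 0.238 FPKM or less. Summed levels of 8 granulosa and theca markers were 50.0 to 51.5 against 102 to 108 FPKM and 39.9 to 40.0 against 72.3 to 74.2 FPKM, most of it cyp17a1, with fshr at 0 throughout. Gsdf was at 1.99 and 1.76 FPKM in WT against 4.42 and 2.33 FPKM in mutants at stage I. At stage II it went the other way, at 5.41 and 4.39 against 0.839 and 2.79 FPKM. Summed levels of 6 blood markers were 2.46 to 2.57 against 3.00 to 5.52 FPKM and 0.623 to 1.58 against 4.38 to 6.26 FPKM. Those of 7 stroma and endothelium markers were 2.47 to 3.38 against 3.52 to 3.92 FPKM and 5.39 to 5.62 against 3.34 to 4.46 FPKM. These marker sums moved with genotype, and their part in the results was not tested. In such bulk samples, fewer cells of a type and less RNA per cell cannot be told apart.

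Members as a whole were well expressed. Their median level was 30.1 FPKM, the highest mean was 130.0 FPKM in pus1, for a pseudouridine synthase of tRNA and mRNA, and 79 of the 82 reached 1 FPKM in all libraries. The exceptions were thumpd3, mrm1 and trmt2a. Together the members made up 0.334 to 0.379% of summed FPKM at stage I and 0.474 to 0.496% at stage II. The total itself was lower at stage II, at 653659 to 712725 FPKM against 849613 to 899582 FPKM at stage I. The members' own sum was 2898 to 3230 FPKM at stage I and 3100 to 3443 FPKM at stage II. The higher share is thus not by itself a rise of the members. By role, the median level ran from 19.2 FPKM for the other METTL names and 20.5 FPKM for deamination and Elongator to 44.4 FPKM for the pseudouridine and dihydrouridine genes.

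At stage I, 44 of the 82 members (53.7%) differed between mutants and WT, 14 higher and 30 lower, against 45.3% of all genes tested (18.4% higher, 26.9% lower). A call here is a Benjamini-Hochberg adjusted p under 0.05 in limma on log2(FPKM + 1), and a log2 difference of low values is understated on that scale. At stage II, 40 members (48.8%) were called, 14 higher and 26 lower, against 44.6% of all genes (25.4% higher, 19.2% lower). Both shares lie near the background, so the count of members is not in itself a result about them. Rescaling moved the stage I split: with median-of-ratios scaling, and likewise with quantile normalization, 18 members were higher and 23 lower, while at stage II the splits were 11 to 31 and 13 to 31. Of the rescaled stage I calls 43.9% were higher under either setting, against 51.2% and 49.2% for all genes. At stage II it was 26.2% and 29.5%, against 47.35% and 51.7% for all genes. The median log2 difference of the members was -0.11 at both stages, beside -0.08 at stage I and 0.07 at stage II for all genes. Differences of at least 1 on the log2 scale were found in 13 members (15.9%, against 13.9% of all genes) at stage I and in 6 (7.32%, against 13.3%) at stage II.

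The genotype differences at the stages come from different libraries, but each gene has a single spread estimate shared by all groups. Calls at the stages are therefore not independent of each other. Members called at both stages numbered 23 (28%, against 23.3% of all genes). Lower at both were 12 (14.6%, against 8.83%): adat1, dimt1l, mettl21a, mrm1, nsun4, nsun5, pus1, tfb1m, trmt1, trmt1l, trmt44 and trmt61b. Higher at both were 5 (6.1%, against 8.33%): mettl16, mettl4, mettl8, nsun2 and trmt9b. A turn of direction was seen in 6 members, of which adat3 and thumpd3 were higher at stage I and lower at stage II (2.44%, against 2.09%), and mettl2a, nsun3, trmt12 and trmt13 were lower and then higher (4.88%, against 4.02%). At neither stage were 21 members called (25.6%, against 33.4%).

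Several of these calls were small and did not hold in every setting. With median-of-ratios scaling and with quantile normalization the stage I calls were lost in nsun4 (adjusted p = 0.19 and 0.14), nsun5 (0.064 and 0.074), trmt1 (0.18 and 0.22) and trmt12 (0.065 and 0.054), so these genes left their lists. Under median-of-ratios scaling alone mettl16 (0.063) and nsun2 (0.052) were not called at stage II. Leaving out a single library ended 1 or both calls of dimt1l, nsun4, nsun5, trmt1, trmt1l, trmt44 and trmt61b among the genes lower at both. It did so for mettl16, nsun2 and trmt9b among those higher at both, and for nsun3, trmt12 and trmt13 among those that turned. Adat1, mettl21a, mrm1, pus1, tfb1m, mettl4, mettl8, mettl2a, adat3 and thumpd3 were called at both stages under each of these settings.

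**Figure D1:**
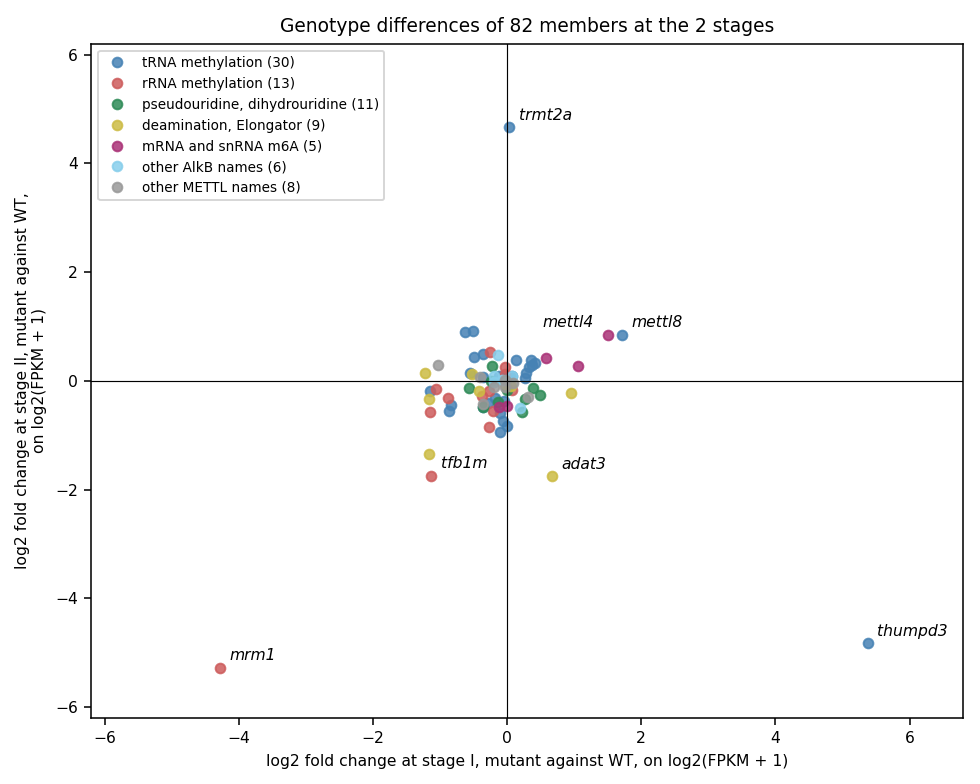
Log2 fold change of mutants against WT on log2(FPKM + 1) at stage I (horizontal axis) and stage II (vertical axis) for the 82 members, 1 point each, coloured by role with the number of members in brackets. Most points lie near the origin, while thumpd3 (5.37 and -4.83), mrm1 and trmt2a (0.03 and 4.66) lie far out. The place of mrm1 rests on mutant libraries listed at 0 and that of thumpd3 on groups near 0, so both depend on the pseudocount.

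Among the tRNA methylation genes, thumpd3 (ENSDARG00000059634) had the largest difference of all members at stage I. In human cells its product, together with TRMT112, methylates a guanosine in the acceptor region of tRNAs. Its level was 0.0409 and 0.0605 FPKM in WT stage I and 42.3 and 42.9 FPKM in mutant stage I libraries. At stage II the WT libraries had 29.4 and 28.1 FPKM, and those of mutants 0.0464 and 0.0454 FPKM. The transcript was near 0 in WT at stage I and in mutants at stage II. From stage I to stage II it thus rose in WT (log2 4.82 ± 0.13, adjusted p = 4.4e-07) and fell in mutants (log2 -5.38 ± 0.13, adjusted p = 1.5e-07). Thumpd3 rose by log2 5.37 ± 0.13 at stage I (adjusted p = 1.6e-07) and fell at stage II (log2 -4.83 ± 0.13, adjusted p = 2.9e-07), both from limma. The difference between these effects, the interaction of genotype and stage, was -10.21 ± 0.18 on the log2 scale (adjusted p = 9.1e-08). Since each of these differences sets a group near 0 against a high one, all depend on the pseudocount and are no folds. With at least 5 FPKM in both libraries counted as high and under 0.5 FPKM in both as low, 6 of the 13862 genes (0.0433%) shared this crossed pattern of 4 groups, and 1 (0.00721%) had its reverse. By the same limits 9 genes (0.0649%) were low in WT and high in mutants at both stages. Whether the stage I labels of the genotypes could be exchanged cannot be settled from these levels alone. Mrm1, described with the rRNA genes, was at 0 in the libraries labelled mutant at both stages.

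Its partner trmt112, which activates several methyltransferases, had 55.3 and 56.5 FPKM in WT libraries at stage I and 52.5 and 49.8 FPKM in mutant ones. At stage II the values were 46.2 and 43.0 against 45.8 and 49.1 FPKM. Neither difference passed the test (log2 -0.13 ± 0.08, adjusted p = 0.21, and 0.09 ± 0.08, adjusted p = 0.38, limma), and the libraries of the genotypes overlapped at stage II. The other THUMP-domain genes were called at stage II alone. Thumpd1, for the adaptor that guides acetylation of tRNA, fell from 71.9 and 70.7 FPKM in WT to 34.2 and 39.3 FPKM (log2 -0.94 ± 0.12, adjusted p = 0.0007). Thumpd2 fell from 13.4 and 12.3 to 7.68 and 6.89 FPKM (log2 -0.74 ± 0.12, adjusted p = 0.002).

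The product of trmt2a (ENSDARG00000002830) makes methyluridine in the T loop of cytosolic tRNAs in human cells. At stage I its level was 40.3 and 40.1 FPKM in WT, beside 39.4 and 43.2 FPKM in mutants. At stage II the WT libraries had 0.997 and 1.42 FPKM, against 58.2 and 51.5 FPKM in mutants. WT stage II was thus the low group. Mutant stage II lay above mutant stage I (log2 0.40 ± 0.12, adjusted p = 0.019, limma), a call lost under both rescalings. The gene rose in mutants at stage II (log2 4.66 ± 0.12, adjusted p = 2.5e-07, limma), and at stage I the difference was 0.03 ± 0.12 (adjusted p = 0.84). Trmt2b, for the enzyme that makes the same base in mitochondria, fell at stage I from 55.8 and 57.2 to 38.2 and 37.9 FPKM (log2 -0.56 ± 0.09, adjusted p = 0.0014), and at stage II it stood at 26.2 and 29.4 against 32.0 and 29.3 FPKM.

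Methylcytidine in tRNA is made by enzymes of the METTL and NSUN families. Mettl8, whose human product methylates mitochondrial tRNAs, rose at stage I from 2.77 and 2.92 to 11.1 and 12 FPKM (log2 1.71 ± 0.17, adjusted p = 0.00019) and at stage II from 7.96 and 7.02 to 12 and 16.9 FPKM (log2 0.84 ± 0.17, adjusted p = 0.0058). Mettl6, for the serine tRNA enzyme, fell at stage I from 147 and 148 to 71.6 and 61.0 FPKM (log2 -1.14 ± 0.09, adjusted p = 5.5e-05) and at stage II stood at 110.0 and 99.8 against 91.3 and 93.6 FPKM (adjusted p = 0.14). Mettl2a, for the enzyme acting on threonine and arginine tRNAs, turned: it fell from 68.6 and 68.0 to 44.5 and 43.2 FPKM at stage I (log2 -0.63 ± 0.09, adjusted p = 0.00081) and rose from 36.4 and 31.1 to 62.6 and 64.1 FPKM at stage II (log2 0.89 ± 0.09, adjusted p = 0.00017). The libraries of the groups did not overlap in these calls. The rule for naming members required this of most of them, so it adds no support.

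The same turn was found in nsun3, whose human product starts the modification of the mitochondrial methionine tRNA at its wobble base. It fell from 16.1 and 16.0 to 10.5 and 11.6 FPKM at stage I (log2 -0.50 ± 0.12, adjusted p = 0.0095, and 0.060 without mutant stage I replicate 1) and rose from 8.66 and 8.81 to 16.1 and 18.7 FPKM at stage II (log2 0.92 ± 0.12, adjusted p = 0.00067). Trmt12, of the wybutosine pathway of phenylalanine tRNA, went from 55.2 and 54.2 to 46.3 and 38.7 FPKM at stage I (log2 -0.36 ± 0.09, adjusted p = 0.014) and from 44.3 and 44.1 to 61.2 and 63.8 FPKM at stage II (log2 0.49 ± 0.09, adjusted p = 0.0041). Its stage I call was lost under both rescalings. It was also lost if WT stage I replicate 1 (0.062) or mutant stage I replicate 2 (0.065) was left out. Trmt13, a ribose methyltransferase, went from 40.7 and 37.1 to 28.4 and 26.2 FPKM (log2 -0.50 ± 0.10, adjusted p = 0.0054) and from 22.2 and 21.5 to 32.4 and 27.8 FPKM (log2 0.44 ± 0.10, adjusted p = 0.0096, and 0.071 without mutant stage II replicate 1). Trmt10c, for a subunit of mitochondrial RNase P that also methylates tRNA, was level at stage I (15.4 and 17.4 against 16.0 and 16.8 FPKM) and fell at stage II from 39.6 and 48.8 to 24.6 and 24.0 FPKM (log2 -0.83 ± 0.12, adjusted p = 0.0011).

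Partners of the tRNA methylation complexes did not all move as one. Mettl1 stood at 35.1 and 43.9 against 34.7 and 38.4 FPKM at stage I (log2 -0.10 ± 0.11, adjusted p = 0.49) and fell from 71.1 and 66.7 to 45.8 and 44.4 FPKM at stage II (log2 -0.60 ± 0.11, adjusted p = 0.004). Its cofactor wdr4, which is outside the name rule and helps it to make methylguanosine in the variable loop, rose from 142 and 138 to 165 and 155 FPKM at stage I (log2 0.19 ± 0.07, adjusted p = 0.046) and stood at 130 and 135 against 121 and 128 FPKM at stage II (adjusted p = 0.29). Trmt6 and trmt61a encode the subunits of the methyladenosine enzyme. Trmt6 went from 54.7 and 54.5 to 43.7 and 40.5 FPKM at stage II (log2 -0.37 ± 0.08, adjusted p = 0.0087), a call that needed replicate 2 of the mutants (adjusted p = 0.063 without it). Trmt61a stood at 67.0 and 66.8 against 68.3 and 70.0 FPKM there (log2 0.05 ± 0.09, adjusted p = 0.71), and at stage I neither gene passed the test, with trmt6 at 49.7 and 44.2 against 44.4 and 45.9 FPKM and trmt61a at 88.0 and 75.2 against 84.3 and 75.3 FPKM. Over the class of 30, 7 were higher and 11 lower at stage I and 9 higher and 11 lower at stage II, with rescaled stage I splits of 9 to 8 and 9 to 9. Of all genes 18.4% were called higher and 26.9% lower at stage I, and 25.4% and 19.2% at stage II.

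Of the 13 genes placed with rRNA methylation, 0 rose and 8 fell at stage I by limma (0 and 9 at an unadjusted p under 0.05), and 2 rose and 6 fell at stage II. Of all genes 18.4% were called higher and 26.9% lower at stage I, and 25.4% and 19.2% at stage II. At an unadjusted p under 0.05, 7350 of the 13862 genes differed at stage I in either direction by limma. With either rescaling the stage I count was 0 higher and 5 lower, where 3084 of the 13862 genes were called lower under median-of-ratios scaling and 3234 under quantile normalization. The class median was -0.27 on the log2 scale at stage I and -0.29 at stage II, beside -0.08 and 0.07 for all genes. Mrm1 (ENSDARG00000059658), for the enzyme that methylates a ribose of the large mitochondrial rRNA, stood at 19.7 and 17.2 FPKM in WT stage I and 34.3 and 41.5 FPKM in WT stage II, and all 4 mutant libraries list it at 0. A fitted difference from values at 0 depends on the pseudocount and is no fold, and the limma calls had adjusted p = 1.2e-06 at stage I and 4.9e-07 at stage II. High in WT and low in mutants at both stages, by the limits of 5 and 0.5 FPKM, were 8 of the 13862 genes (0.0577%).

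Tfb1m and dimt1l encode related enzymes that dimethylate adenosines of the small rRNA, the first in mitochondria and the second in the nucleolus. Tfb1m fell from 9.51 and 12 to 4.71 and 3.93 FPKM at stage I (log2 -1.14 ± 0.18, adjusted p = 0.0017) and from 9.24 and 7.10 to 1.79 and 1.61 FPKM at stage II (log2 -1.75 ± 0.18, adjusted p = 0.00025). Dimt1l fell from 11.4 and 8.96 to 4.10 and 3.95 FPKM (log2 -1.14 ± 0.15, adjusted p = 0.0007) and from 9.84 and 10.9 to 6.24 and 7.11 FPKM (log2 -0.57 ± 0.15, adjusted p = 0.018). The stage II call of dimt1l was lost without WT stage II replicate 2 (adjusted p = 0.089) or mutant stage II replicate 1 (0.10). All mutant libraries of both genes lay below all WT libraries of the same stage, as the rule for naming members required of most of these calls. The mitochondrial small rRNA enzyme gene nsun4 fell at stage II from 66.2 and 62.6 to 33.7 and 37.2 FPKM (log2 -0.84 ± 0.08, adjusted p = 0.00015). Its stage I call (log2 -0.27, adjusted p = 0.025) was lost under both rescalings (log2 -0.17 and -0.16) and with no trend (adjusted p = 0.057). It was lost too without WT stage I replicate 2 (0.10) or mutant stage I replicate 1 (0.070) or 2 (0.093). Mettl17 fell at stage I from 13.3 and 10.9 to 6.58 and 4.17 FPKM (log2 -1.06 ± 0.21, adjusted p = 0.0048), and tfb2m fell there by log2 -0.89 ± 0.17 (adjusted p = 0.0044). Against this direction, mrm2, for another ribose methyltransferase of the large mitochondrial rRNA, rose at stage II from 44.6 and 45.7 to 62.8 and 68.8 FPKM (log2 0.53 ± 0.11, adjusted p = 0.0066). Mettl15 was called higher there (log2 0.26 ± 0.09, adjusted p = 0.048). Its call was lost in 6 of the 8 fits that leave out a library (adjusted p up to 0.20), namely either WT stage I library or any stage II library. It was lost too under median-of-ratios scaling (0.21) and quantile normalization (0.12).

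**Figure D2:**
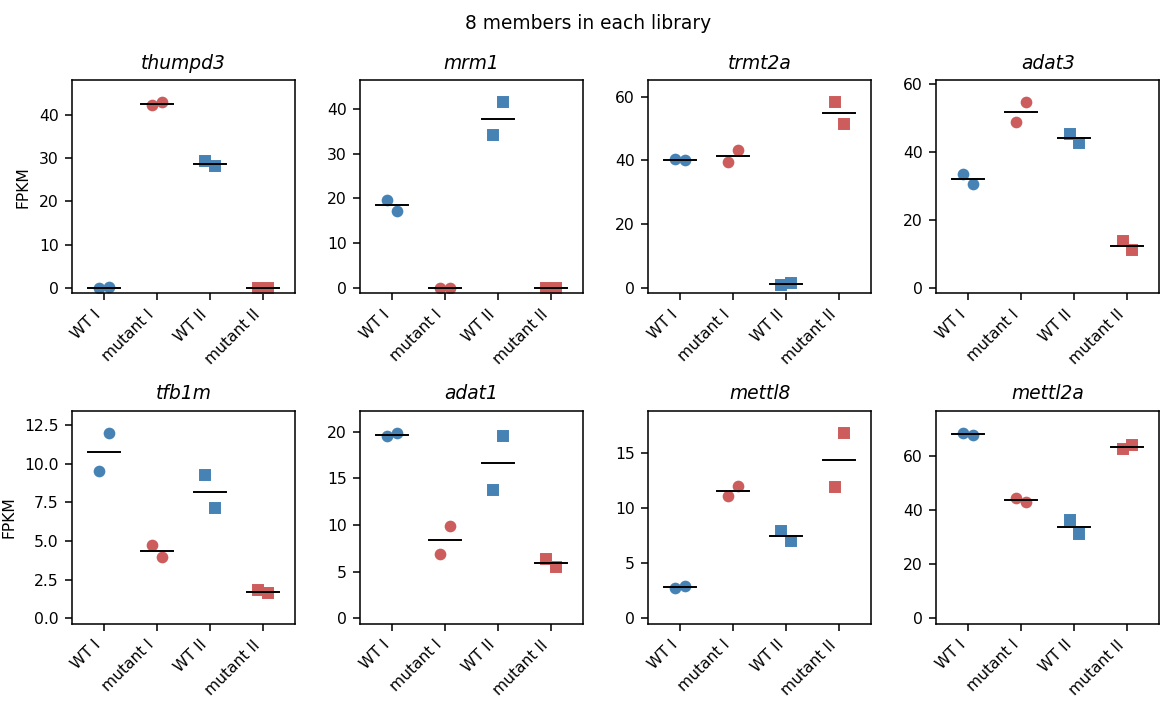
FPKM (vertical axis, from 0, linear) of 8 members in each of the 8 libraries, with points for libraries and a bar for the mean of the 2 libraries of a group. Thumpd3 is high in mutant stage I and WT stage II alone, mrm1 is at 0 in all 4 mutant libraries, and trmt2a is low in WT stage II alone, at 0.997 and 1.42 FPKM.

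Adenosine deaminases of tRNA make inosine, adat2 and adat3 together at the wobble base and adat1 next to the anticodon of alanine tRNA. Adat1 fell at stage I from 19.5 and 19.9 to 6.85 and 9.89 FPKM (log2 -1.16 ± 0.20, adjusted p = 0.0027) and at stage II from 13.8 and 19.6 to 6.35 and 5.45 FPKM (log2 -1.34 ± 0.20, adjusted p = 0.0015). Adat3 (ENSDARG00000005640), the partner without catalytic activity, rose at stage I from 33.6 and 30.7 to 48.9 and 54.6 FPKM (log2 0.67 ± 0.11, adjusted p = 0.0024). At stage II it fell from 45.4 and 42.6 to 13.6 and 11.1 FPKM (log2 -1.76 ± 0.11, adjusted p = 2.7e-05). Mutant stage II was the lowest of the 4 groups of adat3. The catalytic partner adat2 was at 16.3 and 14.1 against 11.4 and 10.7 FPKM at stage I (log2 -0.42 ± 0.13, adjusted p = 0.027), a call not kept if WT stage I replicate 1 (adjusted p = 0.12) or mutant stage I replicate 1 (0.069) or 2 (0.12) was left out, nor under quantile normalization (0.059). At stage II adat2 was at 15.2 and 13.3 against 11.7 and 13.1 FPKM (log2 -0.19 ± 0.13, adjusted p = 0.26).

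Elongator is a complex that modifies wobble uridines, and of elp2 to elp6 some fell at stage I and others did not pass the test. Elp3, for the catalytic subunit, fell from 26.5 and 20.6 to 16.9 and 15.2 FPKM (log2 -0.52 ± 0.12, adjusted p = 0.0098), a call that needed replicate 2 of the mutants (adjusted p = 0.064 without it). The core gene elp2 did not pass the test, at 10.7 and 9.29 against 10.4 and 10.5 FPKM (log2 0.06 ± 0.12, adjusted p = 0.70). Elp4 to elp6 encode the ring-shaped part of the complex, and of these elp4 and elp5 fell. Elp4 went from 12.7 and 10.4 to 4.61 and 4.54 FPKM (log2 -1.17 ± 0.13, adjusted p = 0.00032) and elp5 from 19.0 and 16.9 to 7.49 and 6.70 FPKM (log2 -1.23 ± 0.11, adjusted p = 0.00013). Elp6 stood at 51.1 and 52.7 against 53.7 and 47.9 FPKM (log2 -0.03 ± 0.08, adjusted p = 0.76).

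At stage II limma called 0 of elp2 to elp6 between genotypes (1 at an unadjusted p under 0.05), with log2 differences from -0.33 ± 0.13 in elp4 (adjusted p = 0.073) to 0.14 ± 0.11 in elp5 (adjusted p = 0.35). Of all genes 44.6% were called there. Under median-of-ratios scaling and quantile normalization elp4 was called lower (log2 -0.42, adjusted p = 0.018, and -0.46, adjusted p = 0.012). Stage II values were 29.4 and 34.4 against 28.5 and 31.0 FPKM for elp2 and 44.7 and 45.2 against 48.0 and 50.3 FPKM for elp3. For the ring genes they were 19.2 and 20.0 against 16.4 and 14.3 FPKM in elp4, 15.4 and 16.3 against 17.0 and 18.2 FPKM in elp5, and 45.4 and 44.8 against 42.9 and 43.1 FPKM in elp6. The genotype effects differed between the stages in elp3, elp4 and elp5, with an interaction of 0.64 ± 0.17 in elp3 (adjusted p = 0.022), 0.83 ± 0.19 in elp4 (adjusted p = 0.011) and 1.37 ± 0.16 in elp5 (adjusted p = 0.00069). The elp3 interaction was not called (adjusted p = 0.057 to 0.073) without mutant stage I replicate 2, either WT stage II library or mutant stage II replicate 2.

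**Figure D3:**
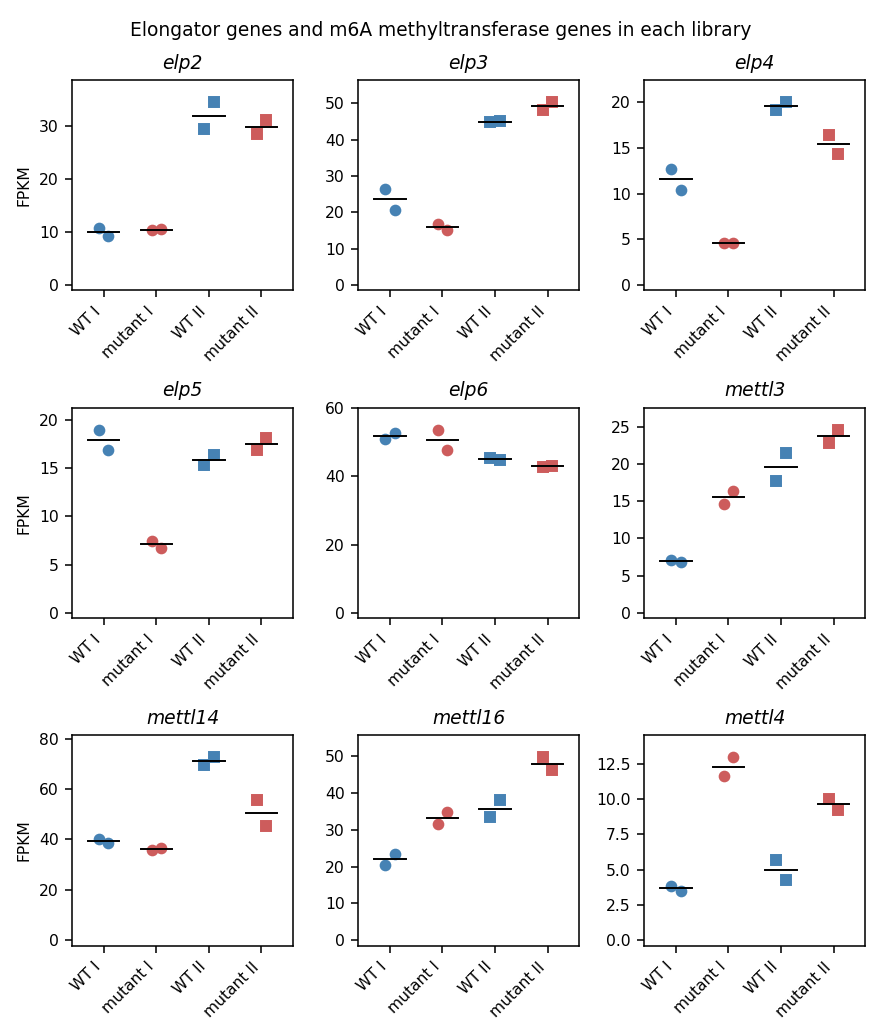
FPKM (vertical axis, from 0, linear) of the Elongator genes elp2 to elp6 and 4 m6A methyltransferase genes in each of the 8 libraries, with points for libraries and a bar for the mean of the 2 libraries of a group. At stage I mutants lie above WT in mettl3 and below it in elp4 and elp5, while at stage II the genotypes lie closer in these genes.

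Among the 11 pseudouridine and dihydrouridine genes, 2 rose and 3 fell at stage I and 0 rose and 3 fell at stage II by limma (0 and 4 at an unadjusted p under 0.05), and the rescaled stage I split was 3 to 2. For all genes the shares called higher and lower were 18.4% and 26.9% at stage I and 25.4% and 19.2% at stage II. Pus1 fell at both stages, from 165 and 172 to 131 and 132 FPKM (log2 -0.36 ± 0.07, adjusted p = 0.0038) and from 123 and 134 to 93.6 and 90.0 FPKM (log2 -0.48 ± 0.07, adjusted p = 0.0011). Pus7, for an enzyme that reads a sequence motif, rose at stage I from 9.96 and 11.3 to 14.2 and 16.4 FPKM (log2 0.49 ± 0.11, adjusted p = 0.0098), a call not kept if WT stage I replicate 1 (adjusted p = 0.051) or mutant stage I replicate 2 (0.067) was left out. Trub1, for a synthase of the T loop, was at 56.4 and 58.6 against 72.6 and 62.9 FPKM at stage I (adjusted p = 0.076) and fell at stage II from 50.7 and 46.7 to 33.3 and 31.0 FPKM (log2 -0.58 ± 0.09, adjusted p = 0.0018).

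Of the 5 genes of mRNA and small nuclear RNA m6A, 3 rose at stage I, where 18.4% of all genes were called higher. Mettl3, for the catalytic subunit of the mRNA methyltransferase, rose from 7.07 and 6.84 to 14.6 and 16.4 FPKM (log2 1.05 ± 0.12, adjusted p = 0.00039) and at stage II was at 17.8 and 21.5 against 22.9 and 24.6 FPKM (log2 0.27 ± 0.12, adjusted p = 0.11). Its partner mettl14 was at 40.0 and 38.6 against 35.7 and 36.6 FPKM at stage I (log2 -0.12 ± 0.10, adjusted p = 0.37) and fell at stage II from 69.5 and 72.5 to 55.6 and 45.5 FPKM (log2 -0.49 ± 0.10, adjusted p = 0.0057). The catalytic gene and its partner were thus called at different stages and in opposite directions. Mettl4 and mettl16 encode methyltransferases of small nuclear RNAs in human cells. Mettl4 rose from 3.84 and 3.49 to 11.6 and 12.9 FPKM at stage I (log2 1.51 ± 0.16, adjusted p = 0.00023) and from 5.68 and 4.24 to 10.0 and 9.20 FPKM at stage II (log2 0.84 ± 0.16, adjusted p = 0.004). Mettl16 rose from 20.6 and 23.5 to 31.5 and 34.9 FPKM (log2 0.57 ± 0.11, adjusted p = 0.0035) and from 33.4 and 38.1 to 49.6 and 46.2 FPKM (log2 0.42 ± 0.11, adjusted p = 0.015). The stage II call was lost under median-of-ratios scaling. It was also lost if replicate 1 of WT (adjusted p = 0.092) or of the mutants (0.089) was left out. Alkbh5, for an m6A demethylase, was level at stage I (log2 0.00 ± 0.08, adjusted p = 0.99) and fell at stage II from 102 and 110 to 77.5 and 75.6 FPKM (log2 -0.46 ± 0.08, adjusted p = 0.0025).

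The AlkB and METTL names outside these classes are few. The 6 AlkB genes had 0 calls at stage I by limma, also 0 at an unadjusted p under 0.05, with adjusted p from 0.11 to 0.66. Of all genes 45.3% were called there. At stage II alkbh2, for a DNA repair enzyme, rose from 21.7 and 21.5 to 29.6 and 31.1 FPKM (log2 0.47 ± 0.09, adjusted p = 0.0048), and alkbh4 fell by log2 -0.51 ± 0.09 (adjusted p = 0.0033). Of the 8 METTL genes, 3 fell at stage I (mettl9, mettl21a and mettl26) and 1 at stage II (mettl21a, whose human product methylates Hsp70 proteins). The shares of all genes called lower were 26.9% and 19.2%. Mettl26 went from 30.7 and 25.9 to 14.5 and 12.3 FPKM at stage I (log2 -1.02 ± 0.12, adjusted p = 0.00042) and was at 24.7 and 25.3 against 28.8 and 32.5 FPKM at stage II (adjusted p = 0.092).

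**Figure D4:**
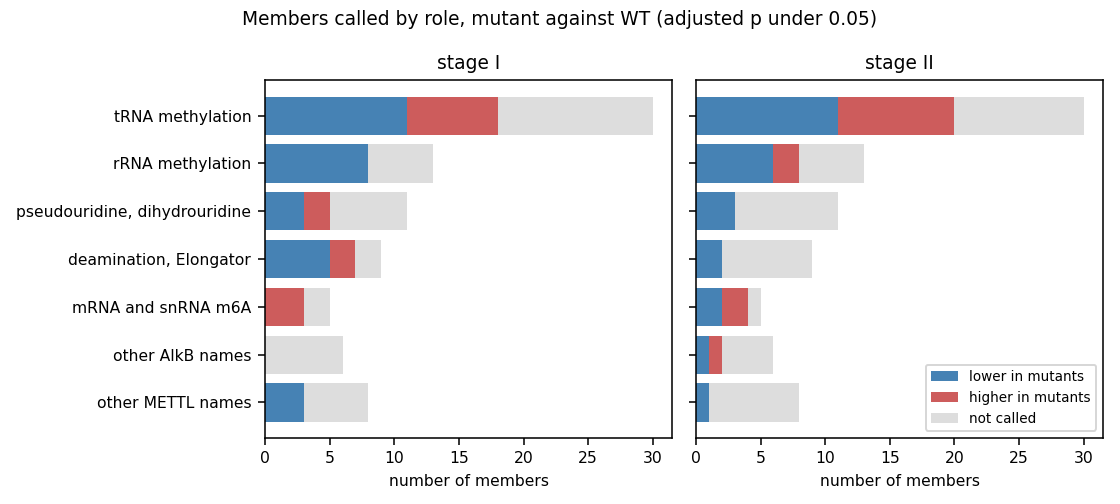
Number of members (horizontal axis, from 0) higher, lower or not called in mutants against WT in each of the 7 role classes, at stage I and at stage II, by limma with Benjamini-Hochberg adjusted p under 0.05. The 13 rRNA methylation genes have 0 higher and 8 lower at stage I, which becomes 0 and 5 under either rescaling, and 2 higher and 6 lower at stage II. Of all genes 18.4% were called higher and 26.9% lower at stage I, and 25.4% and 19.2% at stage II.

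Between stage I and stage II, 51 members (62.2%) changed in WT, against 60.3% of all genes, 34 of them higher at stage II and 17 lower (38.1% and 22.2% of all genes). In mutants 53 (64.6%) changed, against 66.0% of all genes, 37 higher and 16 lower (47.3% and 18.7% of all genes). These splits depend on scaling, since the median of all genes lay at log2 0.15 in WT and 0.32 in mutants and near 0 after rescaling: median-of-ratios gave 29 higher and 31 lower in WT and 12 and 37 in mutants, and quantile normalization 29 and 29, and 19 and 31. Of these rescaled calls 48.3% and 50.0% were higher in WT, against 49.3% and 53.4% for all genes. In mutants it was 24.5% and 38.0%, against 47.9% and 56.1% for all genes. Of the members called in mutants, 6 turned direction under median-of-ratios scaling and 2 under quantile normalization. Of those called in WT, 0 did under either. Turns of members not called were not counted. Relative to the shift of all genes, the members' medians were -0.04 in WT and -0.13 in mutants.

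Elongator genes were among the largest stage differences. In WT elp2 rose most of elp2 to elp6 (log2 1.58 ± 0.12, adjusted p = 3.3e-05). In mutants the largest rises were elp3 (log2 1.56 ± 0.12, adjusted p = 3.1e-05) and elp4 (log2 1.55 ± 0.13, adjusted p = 4.4e-05), with elp2 (log2 1.42 ± 0.12) and elp5 (log2 1.20 ± 0.11) close behind. Elp5 did not rise in WT, at 19.0 and 16.9 FPKM at stage I and 15.4 and 16.3 FPKM at stage II. Elp6 rose in neither genotype, at log2 -0.20 ± 0.08 in WT (adjusted p = 0.053) and -0.23 ± 0.08 in mutants (adjusted p = 0.028). Elp6 was no longer called in mutants if replicate 1 of stage I (0.15) or replicate 1 (0.10) or 2 (0.096) of stage II was left out. Further rises in WT included trmt10c (log2 1.37 ± 0.12, adjusted p = 6.1e-05), mettl3 (log2 1.37 ± 0.12, adjusted p = 7.4e-05) and pus7 (log2 1.21 ± 0.11, adjusted p = 8.6e-05). Besides trmt2a (log2 -4.23 ± 0.12, adjusted p = 6e-07), the largest falls in WT were alkbh2 (log2 -1.02 ± 0.09), mettl2a (-1.0 ± 0.09) and trmt2b (-1.0 ± 0.09). In mutants they were thumpd3 (log2 -5.38 ± 0.13), adat3 (-1.98 ± 0.11), trub1 (-1.05 ± 0.09) and tfb1m (-0.98 ± 0.18). These comparisons share libraries with those between genotypes, so no overlap of their calls is given.

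The genotype effect differed between the stages in 35 members (42.7%, against 36.4% of all genes), with 17 more positive and 18 more negative at stage II (23.3% and 13.0% of all genes), and rescaling gave 12 to 26 and 15 to 23. More positive were 31.6% and 39.5% of these rescaled calls, against 47.1% and 52.5% for all genes. Members with an interaction of at least 1 on the log2 scale numbered 8 (9.76%, against 18.8% of all genes). The median interaction was -0.05 among members and 0.14 among all genes.

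Other genes of the same pathways, from lists of names outside the rule, moved in both directions. Beside the lists below, 18.4% of all genes were called higher and 26.9% lower at stage I, and 25.4% and 19.2% at stage II. Among calls of all genes, 51.2% were higher at stage I under median-of-ratios scaling and 49.2% under quantile normalization. At stage II these shares were 47.35% and 51.7%. Of 29 tested tRNA modification genes with other names, 8 rose and 4 fell at stage I (11 and 1 under either rescaling), and 5 rose and 7 fell at stage II (3 and 10 under median-of-ratios scaling, 5 and 9 under quantile normalization). Wdr6, for the partner of the ribose methyltransferase Ftsj1, rose at stage I from 5.12 and 5.02 to 11.2 and 12.6 FPKM (log2 1.09 ± 0.12, adjusted p = 0.00031), and ftsj1 itself rose from 27.4 and 21.6 to 32.3 and 33.3 FPKM (log2 0.42 ± 0.13, adjusted p = 0.032). The ftsj1 call was lost without WT stage I replicate 2 (adjusted p = 0.16) or mutant stage I replicate 1 (0.093) or 2 (0.13), with no filter (0.068) and with no trend (0.050). Yrdc, which starts threonylcarbamoyl adenosine synthesis, rose at both stages (log2 0.64 ± 0.08, adjusted p = 0.00066, and 0.90 ± 0.08, adjusted p = 0.00015). Kti12, a regulator of Elongator, fell at stage II from 33.7 and 25.8 to 14.3 and 14.4 FPKM (log2 -0.99 ± 0.18, adjusted p = 0.0033).

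The snoRNP list covers the RNA-guided machinery that makes most rRNA modifications and also other rRNA modification genes, such as emg1 and bud23. Its counts are therefore not those of the guided machinery alone. It had 7 higher and 4 lower of 23 at stage I (10 and 2 with median-of-ratios scaling, 9 and 2 with quantile normalization) and 5 higher and 5 lower at stage II (4 and 9, and 6 and 8). At stage I dkc1, for the guided pseudouridine synthase, rose from 70.1 and 69.5 to 99.2 and 115 FPKM (log2 0.61 ± 0.08, adjusted p = 0.00085), and fbl, for the guided ribose methyltransferase, rose by log2 0.39 ± 0.07 (adjusted p = 0.0029). Lower there were nop58, for a core protein of the methylation guides (log2 -0.46 ± 0.10, adjusted p = 0.0074). So were the rRNA methyltransferase genes emg1 (log2 -0.40 ± 0.09, adjusted p = 0.0094) and bud23 (log2 -0.35 ± 0.11, adjusted p = 0.037). The bud23 call was lost under both rescalings (adjusted p = 0.14 and 0.16). Of 29 tRNA processing genes, 6 rose and 5 fell at stage I and 12 rose and 6 fell at stage II. The stage II split was 8 to 8 under median-of-ratios scaling and 11 to 7 under quantile normalization. Among the rises at stage II, that of trnt1 was the largest (log2 1.04 ± 0.21, adjusted p = 0.0053, limma). Rpp21, for a subunit of nuclear RNase P, was at 59.1 and 64.8 against 60.1 and 50.8 FPKM at stage I, and at 25.6 and 20.5 FPKM in WT stage II with both mutant libraries listed at 0 (adjusted p = 5e-07).

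Of 14 m6A partners and readers, 2 rose and 2 fell at stage I and 5 rose and 4 fell at stage II (3 and 4 under either rescaling). Ythdc1, for the nuclear m6A reader, was at 3.23 and 1.19 against 0 and 0.0748 FPKM at stage I, and was called lower (log2 -1.55 ± 0.28, adjusted p = 0.0033). At stage II it fell from 9.23 and 8.28 to 0.511 and 0.293 FPKM (log2 -2.80 ± 0.28, adjusted p = 0.00023). Rbm15, for a subunit of the writer complex, fell at both stages (log2 -0.89 ± 0.14, adjusted p = 0.0017, and -0.87 ± 0.14, adjusted p = 0.0022). Among the rises, igf2bp3 was called at both stages (log2 0.44 ± 0.11, adjusted p = 0.013, and 0.56 ± 0.11, adjusted p = 0.0045, limma). Of 20 cytosolic tRNA synthetases, 0 rose and 6 fell at stage I by limma (0 and 8 at an unadjusted p under 0.05, and 4 and 5 called under either rescaling) and 2 rose and 8 fell at stage II. From stage I to stage II 15 of them rose and 0 fell in WT and 18 rose and 0 fell in mutants (16 and 0, and 18 and 0, at an unadjusted p under 0.05), and rescaling left 13 and 3, and 15 and 2, in WT and 9 and 2, and 12 and 1, in mutants. Of all genes 38.1% rose and 22.2% fell in WT, and 47.3% and 18.7% in mutants. Among rescaled calls of all genes, 49.3% and 53.4% were higher in WT and 47.9% and 56.1% in mutants.

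Some members with large differences lay beside genes that differed too, in the gene order of RefSeq assembly GRCz12tu, which placed 82 members and 11288 tested genes. Of the 6 members called with a log2 difference of at least 1 at stage II, 3 (50.0%) had an adjacent tested gene called the same way at that size, against 20.5% of all such placed genes, and at stage I it was 2 of 13 (15.4%, against 22.1%). Neighbours were chosen after their values were seen. Trmt2a lies between dgcr8 and atp6v0a2b, with tia1l beyond dgcr8. Tia1l stood at 235 and 206 against 213 and 211 FPKM at stage I, and rose at stage II from 4.57 and 3.23 FPKM in WT to 149 and 150 FPKM in mutants (log2 4.95 ± 0.13, adjusted p = 2.3e-07). Atp6v0a2b rose at stage II from 4.85 and 2.27 to 40.1 and 38.9 FPKM (log2 3.21 ± 0.23, adjusted p = 4.5e-05), and dgcr8 from 9.10 and 9.68 to 35.2 and 31.3 FPKM (log2 1.72 ± 0.13, adjusted p = 4.6e-05). All 4 adjoining genes were lowest in WT stage II, and their next neighbours on either side were not called higher. Dgcr8 was also called higher at stage I, from 13.8 and 14.5 to 22.9 and 28.6 FPKM (log2 0.81 ± 0.13, adjusted p = 0.0014). Trmt2a, tia1l and atp6v0a2b were not called there.

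Adat3 lies beside osgepl1, itself a gene of mitochondrial tRNA modification, which fell at stage II from 6.98 and 6.65 to 0.491 and 1.16 FPKM (log2 -2.12 ± 0.20, adjusted p = 0.00015), and the gene after it, zgc:136439, fell there too (log2 -0.86 ± 0.14, adjusted p = 0.0022). Mks1, beside mrm1, fell at both stages (log2 -1.23, adjusted p = 0.00046, and -1.68 ± 0.15, adjusted p = 0.00012), whereas tia1, the third tested gene on the other side, had 8.69 FPKM in one mutant stage I library and 0.0247 FPKM in the other and is not read. The genes on one side of thumpd3 moved against it: aldh1l1 fell at stage I from 11.1 and 8.93 to 2.80 and 2.70 FPKM (log2 -1.55, adjusted p = 0.00015) and rose at stage II from 6.31 and 7.52 to 18.0 and 17.5 FPKM (log2 1.25 ± 0.15, adjusted p = 0.00048), with si:dkey-156n14.3 and gga1 called in the same directions. Whether fragments were counted by strand is not given in the sources used here, so reads of genes that overlap cannot be told apart.

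**Figure D5:**
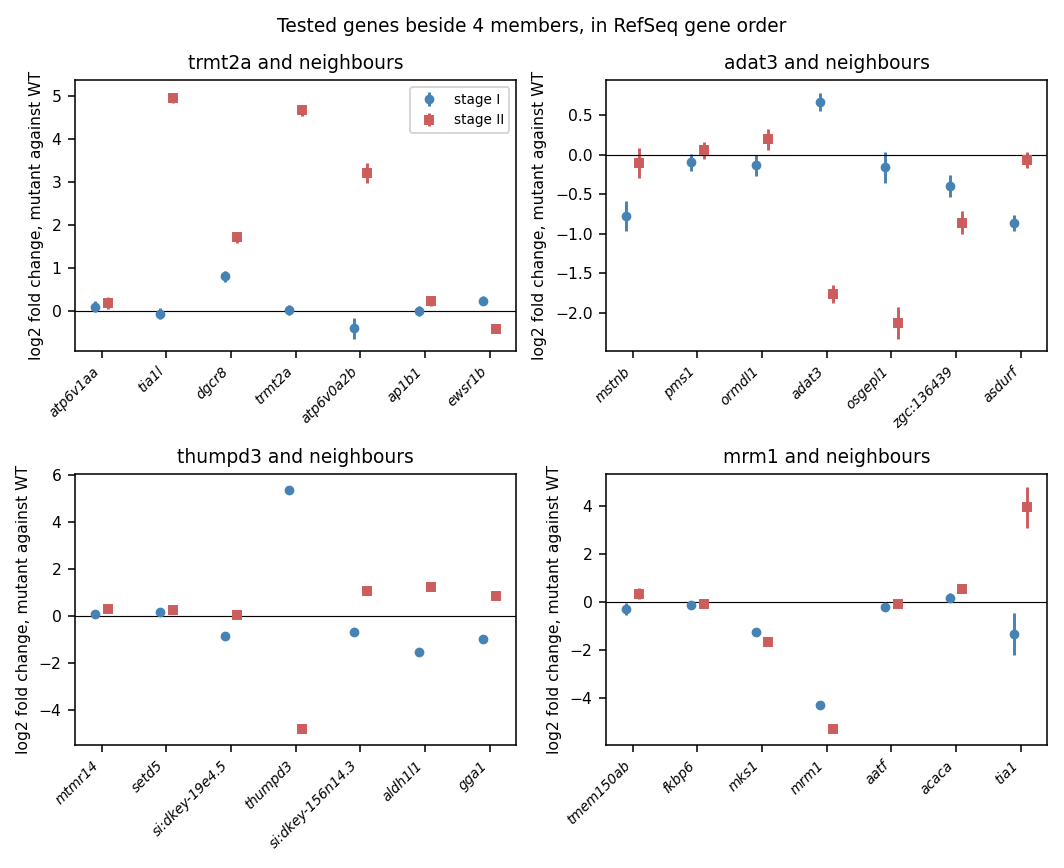
Log2 fold change of mutants against WT on log2(FPKM + 1), at stage I and stage II (vertical axis), for 4 members and the 3 tested genes on each side (horizontal axis, in RefSeq order, not to scale), with bars for the standard error. Trmt2a shares its stage II rise with tia1l, dgcr8 and atp6v0a2b, while aldh1l1 and gga1 lie opposite to thumpd3 at both stages. The points of mrm1 rest on mutant libraries listed at 0 and those of thumpd3 on groups near 0.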

How the data were processed

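Polyadenylated RNA of 8 oocyte libraries was measured. Per the submitters' processing notes, the authors used Trim Galore, STAR 2.5.3a, Cufflinks 2.2.1 and danRer11, with no roles given. The deposited table holds FPKM per gene, as made by the authors, so counts and absolute depth were not used. Its 32197 entries cover 32055 gene IDs: of repeated IDs, 24 were identical copies and were joined, and 103 whose entries conflict were removed, none of them a member. Of 31952 gene IDs kept, 13862 with at least 1 FPKM in at least 2 libraries were tested, and 7857 were at 0 everywhere.

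Values were log2(FPKM + 1), fitted with limma 3.58.1 in R 4.3.3 (4 group means, contrasts, eBayes with a trend, 4 residual and 3.784 prior degrees of freedom). P-values were Benjamini-Hochberg adjusted over all genes tested and called under 0.05, and ± after a log2 difference is its standard error. With 2 libraries a group, each fit shares 1 spread, and whether libraries came from separate fish is not given in the sources used here. Between the 2 libraries of a group the median SD of log2 values was 0.0798 to 0.111. The series text names no pairing between replicate numbers, so the main fit did not use them as pairs. In a check, deviations of libraries with the same replicate number correlated between groups at -0.0412 to 0.0645.

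Members and lists were chosen with earlier results of these data known. Named members are up to 8 rises and 8 falls per contrast, largest first, from called members with separate groups (for the interaction, among called members), with thumpd3, trmt112, the pairs and elp2 to elp6 always given. The text adds members of a class by name, 1 named member is not reported here, and up to 3 called genes each way of a pathway list. The list genes nat10 and wdr4 bear on more than 1 topic, nat10 standing in 2 lists. High and low limits of 5 and 0.5 FPKM were set after values were seen. Paralogs such as mrm3a and mrm3b may share reads. Alternative settings changed the pseudocount (0.1 or 5), the filter (dropped, or a mean of 5 FPKM), the scaling (median-of-ratios, quantile) and the trend (dropped), and others were the replicate number as a block, conflicting gene IDs entered at their mean, and each library left out. Calls of single genes of the pathway lists were checked under the rescalings alone, and those of neighbours outside the lists under none of these settings.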

Additional observations from a re-analysis of the deposited data

Results flagged for a closer look

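In the members below the genotype effect differed between the stages, by a limma test of the interaction adjusted with Benjamini-Hochberg over all genes. Values are the log2 effect at stage II minus that at stage I. More negative at stage II were thumpd3 at -10.2 (adjusted p = 9.1e-08), adat3 at -2.43 (adjusted p = 4.4e-05), mrm1 at -0.996 (adjusted p = 0.011), mettl8 at -0.865 (adjusted p = 0.027), thumpd1 at -0.838 (adjusted p = 0.0076), trmt10c at -0.83 (adjusted p = 0.0071) and trub1 at -0.81 (adjusted p = 0.0027). In mrm1 the mutant libraries are listed at 0 at both stages, so its value follows the rise of the WT level between them, depends on the pseudocount and is no fold. The value of thumpd3 rests on groups near 0, so it too depends on the pseudocount and is no fold.

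More positive at stage II were trmt2a at 4.63 (adjusted p = 1.6e-06), mettl2a at 1.52 (adjusted p = 0.00011), nsun3 at 1.42 (adjusted p = 0.00065), elp5 at 1.37 (adjusted p = 0.00069), mettl26 at 1.31 (adjusted p = 0.0012), mettl6 at 0.966 (adjusted p = 0.0012), trmt13 at 0.939 (adjusted p = 0.0023) and mettl17 at 0.915 (adjusted p = 0.046). The call of mettl17 was lost on leaving out any library but mutant stage I replicate 1, with adjusted p from 0.054 to 0.14, and also with no filter (0.10), with no trend (0.056), under median-of-ratios scaling (0.089) and under quantile normalization (0.10). That of mettl8 was lost on leaving out WT stage I replicate 1 (adjusted p = 0.070), either mutant stage I library (0.061 and 0.090), WT stage II replicate 1 (0.081) or mutant stage II replicate 1 (0.078), and also at a pseudocount of 5 (0.083) or with no filter (0.055).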

How the results depend on the processing

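Leaving out each library in turn gave 29 to 44 called members for mutants against WT at stage I, 31 to 41 at stage II, 46 to 53 and 45 to 53 for stage in WT and in mutants, and 25 to 35 for the interaction. The lowest stage I count, 29 (9 higher, 20 lower), came without mutant stage I replicate 2. The alternatives that keep all libraries gave 39 to 44, 37 to 44, 50 to 60, 48 to 54 and 28 to 38. Calls kept on leaving out any 1 library were 26 of 44 at stage I, 28 of 40 at stage II, 43 of 51, 41 of 53 and 23 of 35. With the replicate number as a block the counts were 42, 39, 52, 53 and 35, and the sources used here name no pairing by these numbers. In the stage comparison of mutants, called rises turned under median-of-ratios scaling in alkbh5 (-0.197), alkbh8 (-0.052), mettl1 (-0.12), nsun5 (-0.041), trmt2a (-0.019) and trub2 (-0.195). Under quantile normalization they turned in mettl1 (-0.027) and pus7 (-0.020), and none was called there. In the other 4 comparisons no call of a member turned under the settings run. Uncalled values were followed only in the members always given, so turns of other uncalled members are not listed. Among these values, the stage I log2 difference turned under median-of-ratios scaling and quantile normalization in mettl1 (0.00034 and 0.0032), trmt6 (0.052 and 0.044), trmt61a (0.077 and 0.064) and elp6 (0.071 and 0.052). At stage II it turned under median-of-ratios scaling in trmt112 (-0.0069) and trmt61a (-0.048). Among the same members, leaving out a library gave both signs at stage I in mettl1 (-0.26 to 0.055), trmt6 (-0.14 to 0.031), trmt61a (-0.14 to 0.084), elp2 (-0.030 to 0.15) and elp6 (-0.11 to 0.048), and at stage II in elp2 (-0.21 to 0.014). The interaction of mrm1 was no longer called at a pseudocount of 0.1 (adjusted p = 0.053). The cause was not tested. Depth is unknown, so levels near 0 cannot be told from undetected transcripts.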
